A study of Mus musculus with 8 samples.

Results

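Genes of the tendon and ligament lineage were measured in 4 populations of stromal cells from newborn mouse bones. The 8 members are *Scx*, *Mkx*, *Tnmd*, *Thbs4*, *Comp*, *Cilp*, *Cilp2* and *Prg4*. They were taken by symbol from a table of 15880 genes, and each symbol has 1 Ensembl identifier there. All 8 were found.

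RNA was sequenced from cells without CD45, CD31 and Ter119 on their surface, sorted by the Nes-GFP reporter and by surface Pdgfrα. Every pup was heterozygous for Nes-Gfp on a C57BL/6 background, and was taken as a newborn at P1, and the labels name no treatment. The populations were GFP- Pdgfrα+, GFP+ Pdgfrα+, GFP+ Pdgfrα- and GFP- Pdgfrα- cells, with 2 libraries each. Each library came from a pool of 3 pups, whose crushed limb and shoulder bones were digested with collagenase, and 15000 to 80000 cells were sorted per sample.

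Several features limit these groups as models. In these mice GFP is driven by regulatory elements of the nestin gene, so that GFP reports the activity of that transgene. The pools leave no value for a single animal. The cDNA was amplified before sequencing. By the methods of the study, postnatal bones were cleaned of the tissue around them before they were crushed, and how much tendon or joint tissue remained was not measured here. The description of the series names sterna, which the sample labels do not.

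The libraries held 3869275 and 3221217 reads on listed genes in GFP- Pdgfrα+ cells, and 3564158 and 3329432 in GFP+ Pdgfrα+ cells. There were 3644103 and 3427644 reads in GFP+ Pdgfrα- cells, and 4058258 and 5302762 in GFP- Pdgfrα- cells. A value below is the number of reads of a gene plus 0.5, per 1e6 of the effective size of the library, as the authors normalized it. A gene with 3 reads had a value between 0.825 and 1.04, and a population with at most 3 reads in both libraries is described as being at the floor. Against such a population the ratio of reads is given with its exact 95% counting interval, and no fold is given where both populations are at the floor. Floors and intervals cover counting error only, while reads of amplified cDNA can be copies of 1 molecule.

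Tendons and ligaments are built by fibroblasts that lay down aligned collagen fibres between muscle and bone or between bones. In the limb, these cells arise from progenitors that express the transcription factor *Scx*, and *Tnmd* appears as they mature. Where tendon meets cartilage or a joint surface, cells also make proteins that cartilage and synovium share, among them the products of *Comp*, *Cilp* and *Prg4*.

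The transcripts of the sort markers were compared over the populations. *Pdgfra* had a mean value of 816 in GFP- Pdgfrα+ and 744 in GFP+ Pdgfrα+ cells, against 14.3 and 3.83 in GFP+ Pdgfrα- and GFP- Pdgfrα- cells. *Nes* had a mean value of 162 in GFP+ Pdgfrα-, 64.8 in GFP+ Pdgfrα+, 37.2 in GFP- Pdgfrα+ and 6.33 in GFP- Pdgfrα- cells. Between the Pdgfrα+ populations the difference in *Nes* was not called by limma (log2 fold change 0.82, 95% interval 0.08 to 1.57, adjusted p = 0.213).

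For all 8 members, both GFP- Pdgfrα+ libraries lay above the other 6 libraries. The share of all genes with this pattern was not counted. In either direction, 48% of all genes had separate libraries between GFP- Pdgfrα+ and GFP+ Pdgfrα+ cells. That share was 64.7% against GFP+ Pdgfrα- and 80.2% against GFP- Pdgfrα- cells. The order of the mean values was GFP- Pdgfrα+, GFP+ Pdgfrα+, GFP- Pdgfrα- and GFP+ Pdgfrα- for *Mkx*, *Tnmd*, *Thbs4*, *Cilp*, *Cilp2* and *Prg4*. For *Cilp2* both Pdgfrα- populations were at the floor, with 3 summed reads without GFP and 1 with GFP, so that their order is not resolved. *Comp* and *Scx* had orders of their own. In bulk RNA, a lower value can mean fewer cells that express a gene or less RNA of it per cell, and these cannot be told apart.

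**Figure D1:**
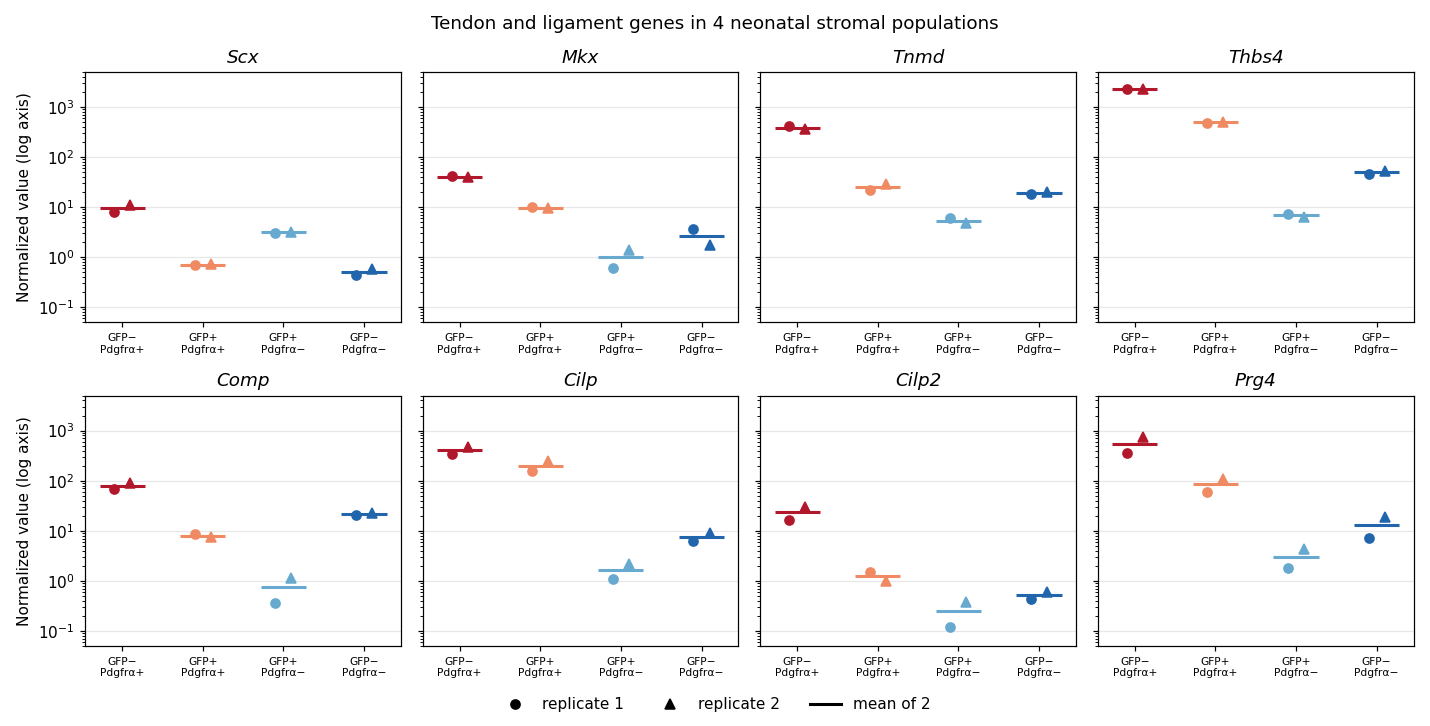
Normalized value of each member in the 8 libraries, on a logarithmic axis, with 1 panel per gene and 1 column per population. Circles are replicate 1, triangles replicate 2 and bars the mean of both, and in every panel the GFP- Pdgfrα+ libraries are the highest.

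*Scx* (ENSMUSG00000034161) encodes scleraxis, a basic helix-loop-helix transcription factor of tendon progenitors. It lies on the plus strand of chromosome 15 from 76287868 to 76289898 in NCBIM37, in 2 exons, within the span of *Bop1* on the opposite strand and without overlap of exons. Its values were 7.94 and 10.8 in GFP- Pdgfrα+ cells (mean 9.39 ± 2.05, SD, n = 2), while GFP+ Pdgfrα- cells had 3.04 and 3.22 (3.13 ± 0.128). They were 0.690 and 0.719 in GFP+ Pdgfrα+ cells (0.705 ± 0.0199) and 0.431 and 0.590 in GFP- Pdgfrα- cells (0.510 ± 0.112), with 1 or 2 reads per library. Thus *Scx* was low throughout, highest in GFP- Pdgfrα+ cells, intermediate in GFP+ Pdgfrα- cells and at the floor in the other 2 populations. Among GFP+ cells it was the only member with a higher mean without Pdgfrα. Its summed reads were 67, 24, 4 and 3 in the order of the levels. The read ratio of GFP- Pdgfrα+ to GFP+ Pdgfrα+ cells was 16.2 (95% interval 6.05 to 61.2), and that of GFP+ Pdgfrα- to GFP+ Pdgfrα+ cells was 5.32 (1.83 to 21.1).

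*Mkx* (ENSMUSG00000061013) encodes mohawk, a homeobox transcription factor that promotes collagen production in tendon. It spans positions 6934964 to 7004777 of chromosome 18 on the minus strand, with 7 exons. In GFP- Pdgfrα+ cells its values were 42.0 and 39.1 (mean 40.5 ± 2.07, SD, n = 2), and in GFP+ Pdgfrα+ cells 9.80 and 9.63 (9.72 ± 0.123). The GFP- Pdgfrα- libraries had 3.59 and 1.77 (2.68 ± 1.29), and the GFP+ Pdgfrα- libraries 0.607 and 1.41 (1.01 ± 0.571). The replicates of the Pdgfrα+ populations were close together and far from each other's range. The GFP- Pdgfrα- and GFP+ Pdgfrα- libraries rest on 12, 7, 2 and 5 reads, and their ranges were separate but narrowly so.

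*Tnmd* (ENSMUSG00000031250) encodes tenomodulin, a transmembrane glycoprotein of mature tendon fibroblasts. On chromosome X its 7 exons lie between 130385519 and 130400116, on the plus strand. The values were 407 and 360 in GFP- Pdgfrα+ cells (mean 383 ± 32.8, SD, n = 2) and 21.4 and 28.3 in GFP+ Pdgfrα+ cells (24.9 ± 4.89). In GFP- Pdgfrα- cells they were 18.0 and 19.9 (18.9 ± 1.40), and in GFP+ Pdgfrα- cells 5.95 and 4.76 (5.35 ± 0.841). One population stood far above the rest, GFP+ Pdgfrα+ and GFP- Pdgfrα- cells were near each other without overlap, and GFP+ Pdgfrα- cells were lowest. The mean in GFP- Pdgfrα+ cells was 15.4 times that in GFP+ Pdgfrα+ cells, 20.2 times that in GFP- Pdgfrα- cells and 71.6 times that in GFP+ Pdgfrα- cells.

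*Thbs4* (ENSMUSG00000021702) encodes thrombospondin 4, a pentameric glycoprotein that organizes the collagen of tendon matrix. It has 22 exons between positions 93521545 and 93564773 of chromosome 13, on the minus strand. Its GFP- Pdgfrα+ libraries had values of 2265 and 2229 (mean 2247 ± 25.7, SD, n = 2), and its GFP+ Pdgfrα+ libraries 473 and 509 (491 ± 25.3). Values fell to 46.7 and 53.4 in GFP- Pdgfrα- cells (50.0 ± 4.76) and to 7.41 and 6.30 in GFP+ Pdgfrα- cells (6.85 ± 0.780). Each population was well apart from the next, with replicates that lay close together. The mean of GFP- Pdgfrα+ cells was 4.58 times that of GFP+ Pdgfrα+ cells and 328 times that of GFP+ Pdgfrα- cells.

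*Comp* (ENSMUSG00000031849) encodes the related thrombospondin of cartilage and tendon that binds collagen fibrils. It lies on the plus strand of chromosome 8 from 72897447 to 72905964, with 19 exons. GFP- Pdgfrα+ cells had 68.5 and 89.5 (mean 79.0 ± 14.9, SD, n = 2), followed by GFP- Pdgfrα- cells with 20.2 and 22.8 (21.5 ± 1.77). Lower values of 8.42 and 7.62 were found in GFP+ Pdgfrα+ cells (8.02 ± 0.570), and of 0.364 and 1.16 in GFP+ Pdgfrα- cells (0.761 ± 0.561), the last from 1 and 4 reads. *Comp* was the only member for which the GFP- Pdgfrα- libraries were above the GFP+ Pdgfrα+ libraries. Within either Pdgfrα class, the GFP- libraries were the higher ones, without overlap.

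*Cilp* (ENSMUSG00000042254) encodes a secreted protein first described in the middle layer of articular cartilage. On the plus strand of chromosome 9 its 11 exons lie between 65112987 and 65128413. The GFP- Pdgfrα+ libraries had values of 340 and 468 (mean 404 ± 89.9, SD, n = 2) and the GFP+ Pdgfrα+ libraries 158 and 242 (199.7 ± 59.6). In the Pdgfrα- cells, values were 6.18 and 9.08 without GFP (7.63 ± 2.05) and 1.09 and 2.19 with GFP (1.64 ± 0.774). Both Pdgfrα+ populations were high and both Pdgfrα- populations low. In each population replicate 2 was above replicate 1, and within the Pdgfrα+ cells the lower GFP- Pdgfrα+ library was still above the higher GFP+ Pdgfrα+ library.

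*Cilp2* (ENSMUSG00000044006) encodes the paralogue of that protein. It lies on the minus strand of chromosome 8, from 72404268 to 72411586, in 8 exons. Its values were 16.5 and 29.8 in GFP- Pdgfrα+ cells (mean 23.2 ± 9.43, SD, n = 2), from 65 and 100 reads. They were 1.52 and 1.01 in GFP+ Pdgfrα+ cells (1.26 ± 0.363), from 5 and 3 reads. *Cilp2* was at the floor in the Pdgfrα- cells, with GFP- Pdgfrα- and GFP+ Pdgfrα- values of 0.431 and 0.590 (0.510 ± 0.112) and of 0.121 and 0.386 (0.254 ± 0.187). Only GFP- Pdgfrα+ cells were clear of the floor in both libraries. The read ratio of GFP- Pdgfrα+ to GFP- Pdgfrα- cells was 57.9 (95% interval 19.5 to 284), and that of GFP- Pdgfrα+ to GFP+ Pdgfrα- cells was 180 (31.9 to 7157), with 1 read in the latter population.

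*Prg4* (ENSMUSG00000006014) encodes lubricin, the proteoglycan that lubricates joint surfaces and gliding tendons. It is on the minus strand of chromosome 1 from 152296542 to 152313295, with 13 exons, and exons of *Tpr* on the opposite strand overlap it, so that without strand-specific counting some reads of these genes could not be told apart. Its values were 361 and 736 in GFP- Pdgfrα+ cells (mean 548 ± 265, SD, n = 2), and GFP+ Pdgfrα+ cells had 58.4 and 109.7 (84.0 ± 36.2). They were 7.32 and 18.5 in GFP- Pdgfrα- cells (12.9 ± 7.91) and 1.82 and 4.24 in GFP+ Pdgfrα- cells (3.03 ± 1.71). Replicate 2 was the higher library in every population, and the populations did not overlap.

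The order of levels was tested between neighbouring populations with limma, in 1 fit of log2(value + 1) over the 8 libraries. The Benjamini–Hochberg method over 15880 genes gave the adjusted p, and calls are those with an adjusted p of at most 0.05. An exact permutation test of 2 libraries against 2, counting both directions, cannot go under 0.333, and limma borrows the spread of other genes instead. A pair of comparisons of neighbours, GFP+ Pdgfrα+ with GFP- Pdgfrα- cells and GFP- Pdgfrα+ with GFP+ Pdgfrα- cells, was added after the data had been seen. Between GFP+ Pdgfrα+ and GFP- Pdgfrα- cells, 7 members were tested, of which 4 were higher in GFP+ Pdgfrα+ cells (32.9% of all genes were called higher) and 1 was lower (26.4% were called lower, and 59.3% in either direction). The libraries of all 7 were separate between these populations, as were those of 78.2% of all genes. *Cilp* (log2 fold change 4.53, adjusted p = 5.76e-08), *Thbs4* (3.27, adjusted p = 1.80e-09), *Prg4* (2.67, adjusted p = 0.000297) and *Mkx* (1.59, adjusted p = 0.00345) were the higher ones. The *Mkx* call was lost with quantile normalization (0.90, adjusted p = 0.0605). Without replicate 1 or 2 of the GFP- Pdgfrα- cells the change of *Prg4* was 2.06 or 3.28. *Comp* was lower (-1.32, adjusted p = 0.00335).

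For *Tnmd* the same pair differed by 0.36 (95% interval -0.10 to 0.83, adjusted p = 0.160), and for *Cilp2* by 0.58 (-0.32 to 1.47, adjusted p = 0.249), and neither was called. The read ratio of *Cilp2*, with GFP- Pdgfrα- cells at the floor, was 2.90 (0.696 to 16.98). A p that misses the threshold does not show that the levels were equal. *Scx* was at the floor in both of these populations and was not compared. Its step from GFP- Pdgfrα+ to GFP+ Pdgfrα- cells was 1.32 (adjusted p = 0.0201). Of all genes 14.3% were called higher in GFP- Pdgfrα+ cells, 13.5% lower and 27.9% in either direction in this comparison, and 64.7% had separate libraries, as *Scx* had. With a pseudocount of 0.1 that call was lost (adjusted p = 0.0863), as it was in edgeR (adjusted p = 0.0572), and without replicate 2 of the GFP- Pdgfrα+ cells (adjusted p = 0.116), replicate 1 of the GFP+ Pdgfrα- cells (adjusted p = 0.0904) or replicate 2 of the GFP+ Pdgfrα- cells (adjusted p = 0.0720). The remaining neighbours are among the comparisons below, and of these *Cilp* between the Pdgfrα+ populations and *Mkx* and *Cilp2* between the Pdgfrα- populations were not called.

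Levels of different members were compared per kilobase of exon. On that scale the mean level in GFP- Pdgfrα+ cells was 683 for *Thbs4*, 283 for *Tnmd*, 128 for *Prg4* and 94.0 for *Cilp*. It was 32.6 for *Comp*, 12.7 for *Mkx*, 8.27 for *Scx* and 5.37 for *Cilp2*. The matrix and membrane genes were thus above both transcription factors in this population, apart from *Cilp2*. In GFP+ Pdgfrα+ cells the order per kilobase was *Thbs4* (149), *Cilp* (46.5), *Prg4* (19.6) and *Tnmd* (18.4), with *Tnmd* now behind *Cilp* and *Prg4*. In GFP- Pdgfrα- cells *Thbs4* (15.2) and *Tnmd* (14.0) led, followed by *Comp* (8.87), *Prg4* (3.02) and *Cilp* (1.77). In GFP+ Pdgfrα- cells *Tnmd* (3.96), *Scx* (2.75) and *Thbs4* (2.08) were the highest per kilobase.

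Because *Scx* encodes a basic helix-loop-helix factor and such factors bind the E-box CANNTG, the 250 bases before the start of each member were searched for it. The motif is palindromic, so that 1 search covers both strands. RefSeq sequences of the build GRCm38.p6 were listed for 4 of the 8 members. The entries of *Scx*, *Mkx*, *Comp* and *Prg4* were missing. The windows are chrX:133850758-133851007 for *Tnmd* (plus strand), chr13:92794819-92795068 for *Thbs4* (minus strand), chr9:65264930-65265179 for *Cilp* (plus strand) and chr8:69887393-69887642 for *Cilp2* (minus strand). They are shown because these members share their highest population, and capitals mark each CANNTG.
Tnmd: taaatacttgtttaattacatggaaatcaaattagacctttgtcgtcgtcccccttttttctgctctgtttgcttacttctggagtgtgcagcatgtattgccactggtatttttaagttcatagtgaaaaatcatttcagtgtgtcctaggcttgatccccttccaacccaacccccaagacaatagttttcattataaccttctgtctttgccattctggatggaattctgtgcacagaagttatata
Thbs4: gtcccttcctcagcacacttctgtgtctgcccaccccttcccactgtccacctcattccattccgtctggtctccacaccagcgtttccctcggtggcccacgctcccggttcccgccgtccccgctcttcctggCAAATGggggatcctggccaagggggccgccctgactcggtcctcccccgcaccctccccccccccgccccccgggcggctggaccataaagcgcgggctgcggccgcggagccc
Cilp: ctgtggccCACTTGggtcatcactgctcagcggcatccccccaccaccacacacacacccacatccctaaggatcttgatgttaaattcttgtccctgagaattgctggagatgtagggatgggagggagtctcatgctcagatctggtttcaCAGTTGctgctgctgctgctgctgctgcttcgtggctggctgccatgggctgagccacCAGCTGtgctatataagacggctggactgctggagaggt
Cilp2: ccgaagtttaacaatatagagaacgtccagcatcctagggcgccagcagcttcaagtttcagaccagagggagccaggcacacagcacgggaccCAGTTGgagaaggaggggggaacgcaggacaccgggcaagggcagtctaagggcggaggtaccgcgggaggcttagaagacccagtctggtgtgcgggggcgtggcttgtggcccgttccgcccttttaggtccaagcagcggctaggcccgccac

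The *Cilp* window held 3 E-boxes, the *Thbs4* window 1, the *Cilp2* window 1 and the *Tnmd* window 0. Of 32851 windows of the same length, 66.2% held at least 1 E-box and 12.2% at least 3. A match is a description of these letters and not a binding site, and the absence of one concerns this window alone.

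The first comparison asked how the members differ with GFP among cells that share surface Pdgfrα. With GFP, 7 of the 8 members were lower, while 2.13% of all genes were called lower. *Cilp* was lower without a call. *Cilp2* passed the authors' stated filter through GFP- Pdgfrα+ cells alone, the higher population here, and without it 6 of 7 members were lower. For every member, the libraries of the populations did not overlap, which held for 48% of all genes. Higher values were called for 3.22% of all genes and either direction for 5.35%. The median log2 fold change of the members was -2.63, beside 0.0047 for all genes, and -2.90 with *Scx* entered by its read ratio.

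*Tnmd* changed by -3.90 on the log2 scale, the lowest fitted change of all 15880 genes (standard error 0.21, adjusted p = 1.34e-06). That rank is for a pseudocount of 1, which lowers the fitted changes of genes with few reads. The ratio of means was 15.4 for *Tnmd* and 18.4 for *Cilp2*, and the read ratio of *Scx* was 16.2. *Cilp2* changed by -3.37 (standard error 0.41, adjusted p = 0.000598) and *Comp* by -3.14 (standard error 0.32, adjusted p = 0.000181), at ranks 7 and 9 from the lowest. *Cilp2* had 5 and 3 reads in GFP+ Pdgfrα+ cells, and its change ranged from -4.31 to -2.80 over the alternatives. *Thbs4* changed by -2.19 with a smaller error (0.14, adjusted p = 4.68e-06). For *Scx*, at the floor in GFP+ Pdgfrα+ cells, the fitted change was -2.59 (standard error 0.37, adjusted p = 0.00196). *Prg4* changed by -2.67 (standard error 0.46, adjusted p = 0.00525) and *Mkx* by -1.95 (standard error 0.38, adjusted p = 0.0114). *Cilp* had the smallest change of the members, -1.03 (95% interval -1.65 to -0.40, adjusted p = 0.0631), with a ratio of means of 2.02.

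3 of these results depended on single libraries or on the model. The *Mkx* call was lost when any of the 4 compared libraries was left out, with adjusted p of 0.115 and 0.0977 without replicates 1 and 2 of the GFP- Pdgfrα+ cells, and of 0.0683 and 0.0614 without replicates 1 and 2 of the GFP+ Pdgfrα+ cells. With a pseudocount of 0.1 it was lost as well (-2.05, adjusted p = 0.0624). The *Prg4* call was lost without the mean-variance trend (adjusted p = 0.0566), without replicate 2 of the GFP- Pdgfrα+ cells (-2.16, adjusted p = 0.104) and without replicate 1 of the GFP+ Pdgfrα+ cells (-2.22, adjusted p = 0.0751). *Prg4* was higher in replicate 2 of every population, and these fits had no block for the replicate number. With that block, 8 members were called lower. *Cilp* was called with the replicate number as a block (adjusted p = 0.00705) and without replicate 1 or 2 of the GFP- Pdgfrα- cells, which are not part of the comparison (adjusted p = 0.0373 and 0.0384). It was also called in a fit of these populations alone (adjusted p = 0.0443), with centring on library medians (adjusted p = 0.0477), in voom (adjusted p = 0.00387) and in edgeR (adjusted p = 0.0134). Over its alternatives the adjusted p of *Cilp* ranged from 0.00387 to 0.401.

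Cartilage markers moved with this comparison. Of 12, 6 were lower in GFP+ Pdgfrα+ cells and 1 was higher, and their median log2 fold change was -1.75 (-1.87 with floor genes by reads). Leaving out replicate 2 of the GFP- Pdgfrα+ cells left 2 lower, and leaving out either GFP+ Pdgfrα+ library left 3. Their summed values were 686 and 2271 in GFP- Pdgfrα+, 655 and 668 in GFP+ Pdgfrα+, 105 and 139 in GFP+ Pdgfrα- and 623 and 1093 in GFP- Pdgfrα- cells. The most abundant was *Col2a1* in GFP- Pdgfrα+ and GFP- Pdgfrα- cells, *Col11a2* in GFP+ Pdgfrα+ cells and *Sox9* in GFP+ Pdgfrα- cells. *Matn1* was at the floor in both Pdgfrα+ populations and in GFP+ Pdgfrα- cells, *Ucma* in both GFP+ populations, and *Lect1* in GFP+ Pdgfrα- cells. *Acan*, with mean values of 217 in GFP- Pdgfrα+ and 58.4 in GFP+ Pdgfrα+ cells, changed by -1.86 (adjusted p = 0.000645).

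The GFP- Pdgfrα+ libraries differed in these markers, with *Col2a1* at 273 in replicate 1 and 1498 in replicate 2. In the same libraries *Scx*, *Comp*, *Cilp*, *Cilp2* and *Prg4* were higher in replicate 2, while *Mkx*, *Tnmd* and *Thbs4* were higher in replicate 1. The part of cartilage cells in the results of the members was not tested.

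Osteoblast markers moved the other way, with 7 of 7 higher in GFP+ Pdgfrα+ cells and a median log2 fold change of 4.04. Their summed values were 479 and 328 in GFP- Pdgfrα+, 9793 and 6483 in GFP+ Pdgfrα+, 773 and 640 in GFP+ Pdgfrα- and 116 and 113 in GFP- Pdgfrα- cells. *Spp1* was the most abundant in all 4 populations, and *Bglap* had floor values in GFP- Pdgfrα- cells. Their part in the result was not tested.

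The second comparison asked how the members differ with Pdgfrα among GFP+ cells. Of the 8 members, 6 were called higher in GFP+ Pdgfrα+ cells (13.1% of all genes were called higher), and *Scx* alone was lower (11.1% were called lower, and 24.2% in either direction). All 8 had separate libraries, beside 61.3% of all genes. The median was 2.42, beside -0.025 for all genes, and 2.81 with the floor genes *Scx* and *Cilp2* entered by reads. These comparisons share populations with each other and are not independent.

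*Cilp* rose by 6.25 (standard error 0.29, adjusted p = 9.58e-08) and *Thbs4* by 5.97 (standard error 0.14, adjusted p = 3.57e-10), ranks 2 and 3 from the highest of all genes. The ratios of their means were 122 and 71.7. *Prg4* rose by 4.40 (standard error 0.46, adjusted p = 3.04e-05), with a ratio of 27.7. *Prg4* had values of 1.82 and 4.24 in GFP+ Pdgfrα- cells, from 7 and 16 reads, and of 58.4 and 109.7 in GFP+ Pdgfrα+ cells. Replicate 2 was thus the higher library in both populations, and the ratio of means does not pair the replicates. Smaller increases were those of *Mkx* (2.44, adjusted p = 0.000658), *Comp* (2.39, adjusted p = 0.000190) and *Tnmd* (2.02, adjusted p = 3.28e-05). The ratios of their means were 9.61, 10.5 and 4.64. With 7 and 5 summed reads of *Mkx* and *Comp* in GFP+ Pdgfrα- cells, the pseudocount lowers the fitted changes of these members. *Cilp2* was not called (0.85, 95% interval -0.05 to 1.75, adjusted p = 0.163), and its read ratio was 9.02 (1.21 to 400).

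*Scx* had a fitted change of -1.27 (standard error 0.37, adjusted p = 0.0273). This call was lost in a fit of these populations alone (adjusted p = 0.0508), in voom (adjusted p = 0.0615) and when any of the 4 compared libraries was left out. The adjusted p was 0.0745 and 0.0753 without replicates 1 and 2 of the GFP+ Pdgfrα+ cells, and 0.0975 and 0.106 without replicates 1 and 2 of the GFP+ Pdgfrα- cells. Over the alternatives it ranged from 0.00713 to 0.106.

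Markers of other cells also differed with Pdgfrα among GFP+ cells. Osteoblast markers were higher in 7 of 7 cases (median 3.46) and cartilage markers in 5 of 12 (median 0.44, or 1.18 by reads), which became 3 without replicate 2 of the GFP+ Pdgfrα+ or replicate 1 of the GFP+ Pdgfrα- cells. Lower were 5 of 5 Schwann lineage markers (median -2.56), 3 of them without replicate 1 of the GFP+ Pdgfrα- cells, 4 of 5 pericyte and smooth muscle markers (median -3.35) and 6 of 8 skeletal muscle markers (median -3.64). Their part in the result was not tested.

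The third comparison asked how the members differ with GFP among Pdgfrα- cells. With GFP, 5 members were lower (23.6% of all genes were called lower), and *Scx* was higher (30.1% were called higher, and 53.7% in either direction). All 8 had separate libraries, beside 76.4% of all genes. The median was -1.69, beside 0.15 for all genes, and -1.72 by reads with *Cilp2* left out because it was at the floor in both populations. Scaling moved the median of all genes by more than 0.1 here, to -0.14 with quantile normalization and -0.30 with centring on library medians.

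*Comp* had the largest change of the members, -3.71 (standard error 0.32, adjusted p = 1.04e-06), with a ratio of means of 28.3. These values rest on 1 and 4 reads in GFP+ Pdgfrα- cells, and the change ranged from -5.13 to -3.38 over the alternatives. *Comp* was followed by *Thbs4* with -2.70 (standard error 0.14, adjusted p = 1.37e-08) and a ratio of 7.30. *Prg4* (-1.73, adjusted p = 0.00667), *Cilp* (-1.72, adjusted p = 0.000281) and *Tnmd* (-1.65, adjusted p = 3.41e-05) changed by similar amounts. *Scx* was higher by 1.45 (adjusted p = 0.00580), with a read ratio of 7.72 (2.34 to 40.0). *Mkx* was not called (-0.86, 95% interval -1.69 to -0.02, adjusted p = 0.0795).

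The *Scx* call was lost with quantile normalization (0.76, adjusted p = 0.101). *Cilp* and *Prg4* were not called in voom (adjusted p = 0.0595 and 0.179), where their changes were larger, at -2.37 and -2.19. *Prg4* also lost its call without replicate 1 of the GFP+ Pdgfrα- cells (-1.28, adjusted p = 0.0968) and without replicate 2 of the GFP- Pdgfrα- cells (-1.11, adjusted p = 0.0704), and it changed by -2.34 without replicate 1 of the GFP- Pdgfrα- cells. *Mkx* was called with quantile normalization (-1.51, adjusted p = 0.00588), centring (-1.31, adjusted p = 0.0112), edgeR (-1.53, adjusted p = 0.0477) and without replicate 2 of the GFP- Pdgfrα- cells (-1.22, adjusted p = 0.0381). Its change was -0.20 or -1.51 without replicate 1 or 2 in every population, with no test. Over their alternatives the adjusted p ranged up to 0.101 for *Scx*, 0.0595 for *Cilp* and 0.179 for *Prg4*, and from 0.00588 to 0.401 for *Mkx*.

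Among Pdgfrα- cells too, 9 of 12 cartilage markers were lower with GFP and 1 was higher, with a median of -2.25 (-2.63 with floor genes by reads). Among them *Acan* changed by -2.13 (adjusted p = 8.65e-06), from 73.7 to 16.6. Osteoblast markers were higher with GFP in 7 of 7 cases (median 2.21). The GFP- Pdgfrα- libraries, which also enter the fourth comparison, the interaction and the comparison with GFP+ Pdgfrα+ cells, stood apart in the share of reads on *mt-Rnr2* (27.2% and 29.1%, against 9.52% to 17.6% in the others). They had 1967 and 1692 genes with 0 reads, against 600 to 804. The part of these differences in the results was not tested.

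The fourth comparison set the Pdgfrα classes against each other among GFP- cells. All 8 members were higher with Pdgfrα, in a comparison where 32.9% of all genes were called higher, 26.8% lower and 59.7% in either direction. All 8 had separate libraries, beside 80.2% of all genes. Without *Cilp2*, for the reason given in the first comparison, 7 of 7 were higher. The median was 4.11, beside 0.17 for all genes, and 4.95 with *Scx* and *Cilp2* entered by reads. The median of all genes became -0.15 with quantile normalization and -0.28 with centring.

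Of the 6 members clear of the floor, *Cilp* rose by 5.56 (adjusted p = 8.81e-09), *Thbs4* by 5.46 (adjusted p = 4.95e-11) and *Prg4* by 5.34 (adjusted p = 7.35e-07), with ratios of means of 53.0, 44.9 and 42.4. Next were *Tnmd* with 4.27 (adjusted p = 6.34e-09), *Mkx* with 3.54 (adjusted p = 6.16e-06) and *Comp* with 1.82 (adjusted p = 0.000321), with ratios of 20.2, 15.1 and 3.67. *Cilp2* and *Scx* are not placed in this order, because the pseudocount lowers their fitted changes from the floor. *Cilp2* rose by 3.95 (adjusted p = 4.46e-06), with a read ratio of 57.9 (19.5 to 284). *Scx* rose by 2.77 (adjusted p = 4.10e-05), with a read ratio of 23.5 (7.71 to 117). All 8 calls held under every alternative tried in this comparison. *Prg4* changed by 4.73 and 5.96 without replicates 1 and 2 of the GFP- Pdgfrα- cells. Osteoblast markers were higher in 7 of 7 cases (median 1.86), and blood cell markers were lower in 5 of 6 (median -5.22, or -5.28 by reads). Of 12 cartilage markers 4 were higher and 1 was lower (median 0.33). Of 8 skeletal muscle markers 3 were higher and 1 was lower (median -0.16, or 0.38 by reads). The counts of cartilage and skeletal muscle markers changed when single libraries were left out. Their part in the result was not tested.

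**Figure D2:**
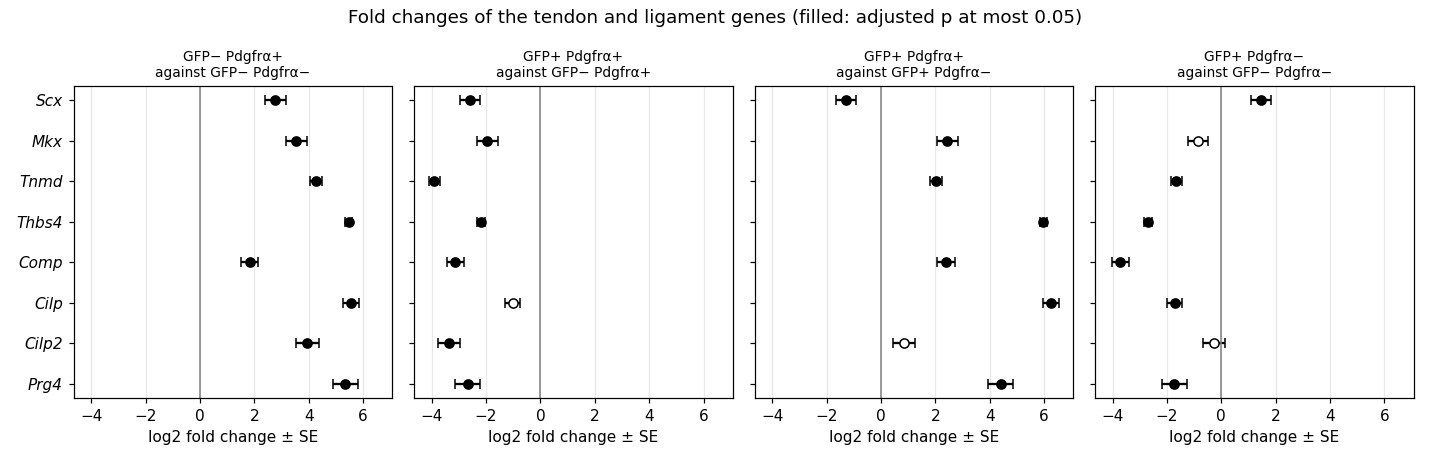
Log2 fold change of each member from limma in the 4 comparisons of populations that share a marker, 1 panel each, with bars of 1 standard error. Filled points have an adjusted p of at most 0.05, and the 8 members are all below 0 in the panel of the Pdgfrα+ populations and all above 0 in the panel of the GFP- populations.

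The interaction asked whether the GFP effect in Pdgfrα+ cells differed from that in Pdgfrα- cells. 3 members were called, all with a lower GFP effect in Pdgfrα+ cells, while 25.2% of all genes were called in that direction, 19.1% in the other and 44.3% in either. *Cilp2* is 1 of the 3, and without it, since it passed the stated filter through GFP- Pdgfrα+ cells alone, 2 of 7 members were called. The median of the members was -1.02 and that of all genes -0.16, which became 0.096 with quantile normalization and 0.27 with centring.

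*Scx* had an interaction of -4.05 (standard error 0.53, adjusted p = 6.79e-05), since it was lower with GFP among Pdgfrα+ cells and higher with GFP among Pdgfrα- cells. *Tnmd* had -2.25 (standard error 0.30, adjusted p = 7.84e-05), being lower with GFP in both classes and more so among Pdgfrα+ cells. *Cilp2* had -3.10 (standard error 0.58, adjusted p = 0.00102), but both of its Pdgfrα- populations were at the floor. It was not called in voom (-2.83, adjusted p = 0.164) or edgeR (-2.84, adjusted p = 0.330). Without replicate 1 or 2 in every population the *Cilp2* value was -3.75 or -2.45, with no test.

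For the other 5 members no difference between the GFP effects was called. *Mkx* had -1.10 (adjusted p = 0.122), *Cilp* 0.69 (adjusted p = 0.190) and *Comp* 0.57 (adjusted p = 0.328). *Cilp* was called with quantile normalization (1.24, adjusted p = 0.0268) and centring (1.12, adjusted p = 0.0356), and *Comp* in edgeR (1.78, adjusted p = 0.0325). Without replicate 1 or 2 in every population the *Mkx* interaction was -1.72 or -0.48, with no test. *Thbs4* had 0.51 (95% interval 0.09 to 0.93, adjusted p = 0.0502), at the edge of the threshold. It was called without replicate 1 of the GFP+ Pdgfrα- cells (adjusted p = 0.0377), without replicate 1 of the GFP- Pdgfrα- cells (adjusted p = 0.0262), and with quantile normalization (1.03, adjusted p = 0.00122) or centring (0.93, adjusted p = 0.00162). The low-value filter (adjusted p = 0.0451), a pseudocount of 0.1 (adjusted p = 0.0192) and edgeR (adjusted p = 0.0209) also gave a call, and its adjusted p ranged from 0.00122 to 0.185. *Prg4* had -0.94 (adjusted p = 0.263), and with the replicate number as a block it was called (adjusted p = 0.0137, range over the alternatives 0.0137 to 0.809). Leaving out replicate 1 of the GFP- Pdgfrα- cells gave -0.33 (adjusted p = 0.701), and leaving out their replicate 2 gave -1.56 (adjusted p = 0.0584).

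Markers of other cells were called in the interaction too. It was negative for 5 of 5 pericyte and smooth muscle markers (median -2.79), 4 of 5 Schwann lineage markers (median -2.31) and 6 of 8 skeletal muscle markers (median -3.35). Voom and edgeR each called 2 of the Schwann lineage markers. Connective tissue fibroblast markers were negative in 4 of 6 cases (median -1.58). Of 12 cartilage markers 5 were positive and 1 was negative (median 0.48), counts that changed when single libraries were left out. Positive values were called for 4 of 6 blood cell markers (median 4.71). For osteoblast markers, of which voom called 2, the count was 5 of 7 (median 1.72). The last count was 3 when replicate 2 of the GFP- Pdgfrα+, replicate 1 of the GFP+ Pdgfrα+ or replicate 1 of the GFP+ Pdgfrα- cells was left out. Their part in the result was not tested.

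Other genes of tendon were described by 4 lists. The shares of all genes called, given with each comparison above, apply to their counts. Called higher were 30.1% with GFP among Pdgfrα- cells, and with Pdgfrα 13.1% among GFP+ and 32.9% among GFP- cells. In the interaction 25.2% were called lower. Counts near such shares do not set a list apart. Between the Pdgfrα+ populations, 7 of 18 tendon matrix genes were lower with GFP and 3 higher (median log2 fold change -0.36). That count rested on single libraries, with 2 lower without replicate 1 of the GFP- Pdgfrα+ cells, 3 without their replicate 2 and 3 without replicate 1 of the GFP+ Pdgfrα+ cells. *Fmod*, which encodes a proteoglycan that controls the width of collagen fibrils, had mean values of 1093 in GFP- Pdgfrα+, 127 in GFP+ Pdgfrα+, 9.52 in GFP+ Pdgfrα- and 43.0 in GFP- Pdgfrα- cells. It changed by -3.10 between the Pdgfrα+ populations (adjusted p = 6.88e-05) and by -1.98 with GFP among Pdgfrα- cells (adjusted p = 5.93e-05), directions it shared with *Tnmd*. *Col1a1*, the main collagen of tendon and also of bone, was higher in GFP+ Pdgfrα+ cells by 1.46 (adjusted p = 0.000569), with means of 16096 in GFP- Pdgfrα+ and 44748 in GFP+ Pdgfrα+ cells. All 18 genes of the list were higher with Pdgfrα, among GFP+ cells (median 3.11, or 3.42 with floor genes by reads) and among GFP- cells (median 5.51). With GFP among Pdgfrα- cells, 16 were higher and 2 lower (median 2.03), a majority opposite to that of the members. In the interaction 16 were lower (median -2.34).

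The list of tenogenic regulators, with growth factors, receptors and transcription factors that act on tendon cells, had 14 of its 16 genes in the table, without *Gdf5* and *Gdf7*. Between the Pdgfrα+ populations 5 were lower and 2 higher in GFP+ Pdgfrα+ cells, with a median of -0.70. Without replicate 1 or 2 of the GFP- Pdgfrα+ cells 1 or 0 were lower, and without replicate 1 or 2 of the GFP+ Pdgfrα+ cells 0 or 2. *Egr2* was higher by 2.05 (adjusted p = 0.00114), with means of 71.5 in GFP+ Pdgfrα+ and 16.0 in GFP- Pdgfrα+ cells. With Pdgfrα among GFP+ cells 6 were lower and 3 higher (median -0.49), with 3 lower when either GFP+ Pdgfrα- library was left out. With GFP among Pdgfrα- cells 13 were higher and 1 lower (median 2.46, or 3.06 by reads), and the same counts held for GFP- Pdgfrα+ against GFP- Pdgfrα- cells (median 2.90). In the interaction 13 genes of the list had a negative value that was called and 1 a positive one (median -3.43).

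The relatives of the members, thrombospondins and others of their families, had 6 of 10 genes in the table, without *Tcf15*, *Irx1*, *Irx2* and *Irx6*. Between the Pdgfrα+ populations, 2 of these 6 were lower with GFP and 1 was higher (median -0.26), which became 1 and 0 without either GFP- Pdgfrα+ library. Of the 6, 5 were higher with Pdgfrα among GFP+ cells (median 2.49, or 2.92 by reads). Among Pdgfrα- cells 2 were higher with GFP and 1 was lower (median 0.63, or 0.77 by reads). With Pdgfrα among GFP- cells 3 were higher (median 2.15, or 3.38 by reads), and 2 had a negative interaction (median -0.56), with 1 positive one called without replicate 2 of the GFP+ Pdgfrα+ cells. *Thbs2*, which is also in the matrix list, had means of 1021 in GFP- Pdgfrα+ and 873 in GFP+ Pdgfrα+ cells, and its change of -0.23 was not called (95% interval -0.61 to 0.16, adjusted p = 0.556). *Thbs3* was lower (-1.01, adjusted p = 0.00365), a call that was lost without replicate 1 or 2 of the GFP- Pdgfrα+ cells.

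Of the joint lining genes 8 of 9 were in the table, without *Gdf5*. Between the Pdgfrα+ populations limma called 0 of them (median -0.69), with 5 lower at an unadjusted p of at most 0.05, 3 lower in voom and 1 in edgeR. Without replicate 1 or 2 of the GFP- Pdgfrα- cells limma called 1 or 2 lower. With Pdgfrα, 6 were higher among GFP+ cells (median 1.74), and all 8 among GFP- cells (median 2.67, or 3.50 by reads). Among Pdgfrα- cells 4 were higher with GFP and 1 was lower (median 0.71, or 1.34 by reads), with 2 lower without replicate 1 of the GFP- Pdgfrα- cells. The lower one was *Cd55*, with means of 6.83 in GFP+ Pdgfrα- and 73.7 in GFP- Pdgfrα- cells and a change of -3.25 (adjusted p = 3.14e-07). The interaction was called for 1 gene upward and 4 downward (median -0.99).

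Markers of further cell types were read beside these results. Skeletal muscle markers were higher with GFP in 8 of 8 cases among Pdgfrα- cells and in 2 of 8 among Pdgfrα+ cells (median 1.02, or 1.68 by reads), the latter falling to 1 without replicate 2 of the GFP- Pdgfrα+ cells or either GFP+ Pdgfrα+ library. Their summed values were 26.0 and 24.4 in GFP- Pdgfrα+, 49.2 and 60.9 in GFP+ Pdgfrα+, 722 and 735 in GFP+ Pdgfrα- and 22.1 and 11.6 in GFP- Pdgfrα- cells. *Pax7* was the most abundant in GFP+ Pdgfrα- cells and *Acta1* elsewhere. *Pax7*, *Myf5*, *Myod1* and *Myog* were at the floor in GFP- Pdgfrα+ cells, where the members were highest, and *Myf5*, *Myod1* and *Ckm* in GFP- Pdgfrα- cells.

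Schwann lineage markers were higher with GFP in 5 of 5 cases among Pdgfrα- cells and in 3 of 5 among Pdgfrα+ cells (median 1.60). They summed to 12.5 and 24.2 in GFP- Pdgfrα+, 94.0 and 61.4 in GFP+ Pdgfrα+, 426 and 399.9 in GFP+ Pdgfrα- and 22.0 and 39.5 in GFP- Pdgfrα- cells, with *Sox10* at the floor in GFP- Pdgfrα+ cells. *Erbb3* was the most abundant in GFP+ Pdgfrα- cells. For pericyte and smooth muscle markers the counts were also 5 of 5 and 3 of 5 (median 1.16), the latter falling to 1 without replicate 2 of the GFP- Pdgfrα+ cells. Their sums were 317 and 336 in GFP- Pdgfrα+, 391 and 299.7 in GFP+ Pdgfrα+, 1741 and 2260 in GFP+ Pdgfrα- and 72.8 and 112 in GFP- Pdgfrα- cells. *Cspg4* led in the Pdgfrα+ and *Rgs5* in the Pdgfrα- populations.

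Connective tissue fibroblast markers, a list that includes *Pdgfra*, were higher in each Pdgfrα+ population than in the Pdgfrα- population of the same GFP class in 6 of 6 cases. Between the Pdgfrα+ populations 1 of 6, *Ly6a*, was lower in GFP+ Pdgfrα+ cells (median -0.52), a call that was lost without replicate 1 or 2 of the GFP- Pdgfrα+ cells or replicate 2 of the GFP+ Pdgfrα+ cells. They summed to 1720 and 1459 in GFP- Pdgfrα+, 1276 and 1298.5 in GFP+ Pdgfrα+, 221 and 208 in GFP+ Pdgfrα- and 11.8 and 15.6 in GFP- Pdgfrα- cells. *Pdgfra* was the most abundant in the Pdgfrα+ populations, *Dpt* in GFP+ Pdgfrα- and *Cd34* in GFP- Pdgfrα- cells. *Pi16* and *Clec3b* were at the floor in both Pdgfrα- populations and *Ly6a* in GFP+ Pdgfrα- cells.

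Of the 4 endothelial markers limma, voom and edgeR each called 0 between the Pdgfrα+ populations, with 0 at an unadjusted p of at most 0.05 (median 0.24). Their sums were 48.4 and 50.8 in GFP- Pdgfrα+, 46.7 and 66.7 in GFP+ Pdgfrα+, 43.9 and 86.2 in GFP+ Pdgfrα- and 28.1 and 104 in GFP- Pdgfrα- cells. *Tek* led in the single-positive populations and *Cdh5* in the other populations. With GFP, 1 of the 6 blood cell markers was lower among Pdgfrα+ cells (median -0.45, or -0.89 by reads) and 4 were lower among Pdgfrα- cells. The first of these counts was 0 when any of 5 libraries was left out, replicate 1 of the GFP- Pdgfrα+ cells or any GFP+ library. They summed to 6403 and 11676 in GFP- Pdgfrα- cells, with *Hbb-b1* as the most abundant. In the other populations they summed to 48.4 and 32.4 in GFP- Pdgfrα+, 23.8 and 29.6 in GFP+ Pdgfrα+ and 90.3 and 54.3 in GFP+ Pdgfrα- cells, with *Ptprc* at the floor in the first and *Cd74* in the second of these. The part of these cell types in the results of the members was not tested.

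The members were also compared by the shape of their profiles, as the root mean square difference of centred log2(value + 1) over the 8 libraries. *Mkx* (0.54) and *Tnmd* (0.62) were nearest to the mean profile of the other members. *Cilp2* (0.85), *Prg4* (0.91), *Comp* (1.25), *Thbs4* (1.40) and *Cilp* (1.54) were farther away, and *Scx* (1.95) was farthest. The pseudocount of 1 flattens profiles that reach the floor, so the places of *Scx* and *Cilp2* are for this pseudocount alone. Among 9012 other genes with a mean value of at least 10, *Zfp185* was nearest to the mean profile of the 8 members, at a difference of 0.22. Its mean values were 76.7 in GFP- Pdgfrα+, 10.7 in GFP+ Pdgfrα+, 0.511 in GFP+ Pdgfrα- and 3.19 in GFP- Pdgfrα- cells. *Pappa2* (0.42), *Anxa8* (0.46), *Scube2* (0.46) and *Ltbp2* (0.48) followed.

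The nearest genes of single members were *Sft2d2* for *Scx* (0.23), *Camk1d* for *Mkx* (0.46), *Pappa2* for *Tnmd* (0.37) and *Egfl6* for *Thbs4* (0.65). They were *Chad* for *Comp* (0.55), *Adam33* for *Cilp* (0.52), *Camk4* for *Cilp2* (0.63) and *Egfl6* for *Prg4* (0.41). *Egfl6* was thus the nearest gene of 2 members, with mean values of 227 in GFP- Pdgfrα+, 38.0 in GFP+ Pdgfrα+, 0.882 in GFP+ Pdgfrα- and 3.55 in GFP- Pdgfrα- cells. *Sft2d2* had means of 90.7 in GFP- Pdgfrα+, 52.5 in GFP+ Pdgfrα-, 19.8 in GFP+ Pdgfrα+ and 16.5 in GFP- Pdgfrα- cells, the order of *Scx*. *Fmod*, of the matrix list, was the gene next nearest to *Prg4* (0.56). These differences describe likeness over 8 libraries and carry no test.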

How the data were processed

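RNA-seq of 8 libraries, 2 for each of 4 sorted populations, was read from the deposited table. According to the submitters' processing notes, the reads passed through Picard and cutadapt, were quantified with RSEM 1.17 on the transcriptome of NCBIM37, and were normalized with limma. The authors deposited a signal for each gene and library on a linear scale, after a filter and voom of limma. Each value is a read number plus 0.5, divided by the effective size of its library and multiplied by 1e6, and 100% of the values gave whole reads within a tolerance of 0.01 reads. The stated filter of more than 2 counts per 1e6 in at least 2 samples was recomputed from these reads. It was passed by 8 of 8 members, *Cilp2* through GFP- Pdgfrα+ cells alone, and failed by 1645 listed genes, all of which were kept. Identifiers of 15849 of 15880 genes matched GENCODE M1 on NCBIM37, and 74 symbols have several identifiers, of which the one with the highest mean was taken.

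Values were transformed to log2(value + 1), with a pseudocount of 1, and fitted with limma 3.58.1 (trend) in R 4.3.3, with 4 residual degrees of freedom. Tables were made with pandas 2.3.3, numpy 2.4.6 and scipy 1.17.1 in Python 3.11.15, and figures with matplotlib 3.10.9. Calls use an adjusted p of at most 0.05. On the recovered reads edgeR 4.0.16 called 893 genes with GFP in Pdgfrα+ and 8415 in Pdgfrα- cells, 3586 with Pdgfrα in GFP+ and 9281 in GFP- cells, and 6644 in the interaction. Its common biological coefficient of variation was 0.188. The spread between libraries of a population exceeded that of counting, with a chi-square of 4.15 to 9.21 for each degree of freedom.

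The study describes each independent set of samples as pooled littermates, and samples with the same replicate number were therefore taken as paired. Deviations of same-numbered libraries were correlated at 0.00433 to 0.0812 between populations, and *Xist* was 2.90 to 11.3 in replicates 1 and 868 to 1380 in replicates 2. The replicates of every population thus differed in *Xist*. The part of that difference between the pools in the results, also for *Tnmd* on chromosome X, was not tested. The reported fit and the fits without single libraries have no block and so do not use this pairing. The fit with a block is an alternative.

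The named genes are the members, up to 4 genes with the highest mean of each list, further genes of the 4 tendon-related lists called between the Pdgfrα+ populations, the genes with the most similar profiles, *Pdgfra* and *Nes*. Not all of them are printed, and those of the lists that are were picked from them after their values were seen, with preference for calls that held under the alternatives. Markers at the floor, or most abundant in a population, are named in addition. The lists are tendon matrix genes, tenogenic regulators, relatives of the members, joint lining genes and 8 lists of cell type markers. Members and lists were chosen with earlier results of these data known. Upstream sequences came from RefSeq promoters of GRCm38.p6, where 4 of 8 members matched.

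Alternatives were a fit of the compared populations alone, the replicate block, no mean-variance trend, quantile normalization, centring on library medians, a low-value filter, 0.1 as the pseudocount, an adjusted p of at most 0.10, voom and edgeR on the recovered reads, and leaving out each replicate number or library. The fits were tested on simulated data. A pair of comparisons, GFP+ Pdgfrα+ with GFP- Pdgfrα- and GFP- Pdgfrα+ with GFP+ Pdgfrα- cells, was chosen after seeing the data, to test neighbouring levels. The counts of each list without each library were also added after seeing the data.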

Additional observations from a re-analysis of the deposited data

Results flagged for a closer look

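3 members had a GFP effect in Pdgfrα+ cells that differed from the GFP effect in Pdgfrα- cells by the test of the interaction itself. Of all genes 44.3% were called in the interaction, 25.2% in the direction of these members, so the count of 3 of 8 does not set the members apart. The difference of the log2 effects was -4.05 for *Scx*, -2.25 for *Tnmd* and -3.10 for *Cilp2*. *Scx* was at the floor in GFP+ Pdgfrα+ and GFP- Pdgfrα- cells, and *Cilp2* in both Pdgfrα- populations, so that the sizes of these 2 values depend on the pseudocount. The *Cilp2* difference was not called in voom or edgeR. *Cilp2* passed the stated filter through GFP- Pdgfrα+ cells alone, and without it the count is 2 of 7.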

How the results depend on the processing

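In the 4 comparisons that share a marker and in the interaction, no member changed direction under any alternative with a test, and the changed calls are given beside their results. At an adjusted p of at most 0.10 the calls gained were *Cilp* between the Pdgfrα+ populations, *Mkx* between the Pdgfrα- populations and *Thbs4* in the interaction. With *Scx* from GFP- Pdgfrα+ to GFP+ Pdgfrα- cells and the 7 members between GFP+ Pdgfrα+ and GFP- Pdgfrα- cells included, members kept their result in 874 cases, lost a call in 27, gained one in 25 and reversed in 2. In a further 24 cases, all without a whole replicate number and so without a test, the value moved by at least 1 standard error. The reversed values, neither of them called, were those of *Tnmd* between GFP+ Pdgfrα+ and GFP- Pdgfrα- cells with centring (-0.12) and of *Cilp2* with quantile normalization (-0.16). The replicate block changed the calls of *Cilp* between the Pdgfrα+ populations and of *Prg4* in the interaction, and no other call of a member. Other named genes kept their result in 6181 cases, lost a call in 367 and moved in that way in 276. Their uncalled results were not varied, so that gained calls could not be counted for them. *Col3a1* reversed between the Pdgfrα+ populations with quantile normalization (0.040), and *Bglap* in the interaction in voom (-0.19) and edgeR (-2.13). The causes were not tested.

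The genes called in GFP+ Pdgfrα+ against GFP- Pdgfrα+ cells numbered 849, with 532 without the trend and 1356 at an adjusted p of at most 0.10. Leaving out 1 library gave 246 to 1083, with 306 and 246 without replicates 1 and 2 of the GFP- Pdgfrα+ cells and 350 and 517 without those of the GFP+ Pdgfrα+ cells. The range was 2158 to 4056 for GFP+ Pdgfrα+ against GFP+ Pdgfrα-, 7053 to 8672 for GFP+ Pdgfrα- against GFP- Pdgfrα-, 8153 to 9735 for GFP- Pdgfrα+ against GFP- Pdgfrα- cells and 5941 to 6642 for the interaction. The members called then numbered 5 to 8, 6 to 7, 5 to 6, 8 and 3 to 4, in the same order. In the interaction, 5 members were called with quantile normalization and 5 with centring. The lone library left in a population was assumed to vary like the others, and without a whole replicate number no test could be made.

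Scaling shifted the balance of calls. In GFP+ Pdgfrα- against GFP- Pdgfrα- cells 4787 genes were higher and 3740 lower, against 3871 and 4419 with quantile normalization and 3550 and 5569 with centring. In GFP- Pdgfrα+ against GFP- Pdgfrα- cells the counts were 5226 and 4250, against 4249 and 5086 and then 3913 and 5720. In the interaction they were 3032 and 3999, against 3307 and 3306 and then 4427 and 2989.

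Depth limits *Scx* and *Cilp2* most, with at most 5 reads per library in 2 and 3 populations. With 2 libraries per population the precision of each gene rests on spread shared between genes. The libraries are pools of pups, the sort does not separate tendon from other stroma, and bulk values give no cell numbers.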
